A study of Homo sapiens with 12 samples.

Results

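Genes of pigment synthesis and of the melanosome, the organelle in which melanocytes make and store melanin, were followed in 5 human melanoma cell lines treated with a RAF inhibitor. The genes were chosen by name, with earlier results of these data known. They form a list of 10 genes: TYR, TYRP1, DCT, PMEL, MLANA, OCA2, GPR143, TRPM1, MLPH and MYO5A. Of these, 9 had probe sets named in the array annotation, 12 probe sets in all, among 11963 named genes on the array. DCT was not analysed here. All 9 genes passed the filter on low signal and were tested among 7178 genes.

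The groups were PLX4032 at 250 nM (5 arrays), PLX4032 at 1000 nM (2 arrays) and the solvent control DMSO at 0.1% (5 arrays), each for 8 h. PLX4032 (vemurafenib) is a small-molecule RAF kinase inhibitor. The lines, Malme3M, SkMel-19, SkMel-28, SkMel-5 and SkMel-1, all carry the V600E form of BRAF, in the treated cells and in the DMSO controls alike, and no line with normal BRAF was part of the comparison. SkMel-19 and Malme3M were the lines given 1000 nM. Each line and dose had 1 array of RNA from a whole culture, so the lines served as the replicates. The p-values set the mean change against how much that change differed between lines, with the level of each line taken out. Median signals of the arrays ran between 102.5 and 130.4 array units.

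Melanin is made from the amino acid tyrosine inside the melanosome. Tyrosinase (TYR) starts the synthesis, and the related enzymes TYRP1 and DCT act on later intermediates of the dark pigment. PMEL forms the fibrils on which melanin is laid down, and the small membrane protein MLANA takes part in the maturation of PMEL. OCA2 is a melanosomal membrane protein that affects the acidity of the organelle, GPR143 is a receptor in the melanosome membrane, and TRPM1 is a cation channel. MLPH links the GTPase RAB27A to the myosin motor MYO5A, which carries melanosomes along actin. Many of these genes are known targets of MITF, the lineage transcription factor, which binds E-box motifs of the form CATGTG.

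The promoter windows below are shown for their sequence, and 4 that hold CATGTG are printed: those of TYR, TYRP1, GPR143 and TRPM1. Of these genes GPR143 and TRPM1 rose at 250 nM, while TYR and TYRP1 did not pass. RefSeq windows (GRCh38.p14) from 250 bases before to 50 bases after an annotated start were found for 9 of the 10 genes, 12 windows in all. PMEL had none in the table used. Capitals mark CATGTG or CACGTG on either strand (CACATG is CATGTG on the other strand), extended by a base where the longer motif TCATGTG is present, which contains CATGTG.
TYR, chr11:89177625-89177924, + strand: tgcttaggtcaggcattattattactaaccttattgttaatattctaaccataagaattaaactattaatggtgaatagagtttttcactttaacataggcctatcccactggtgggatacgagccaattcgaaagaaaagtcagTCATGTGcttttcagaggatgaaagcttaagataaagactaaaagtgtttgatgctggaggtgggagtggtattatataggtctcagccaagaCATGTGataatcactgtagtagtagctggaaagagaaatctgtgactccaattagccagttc
TYRP1, chr9:12693135-12693434, + strand: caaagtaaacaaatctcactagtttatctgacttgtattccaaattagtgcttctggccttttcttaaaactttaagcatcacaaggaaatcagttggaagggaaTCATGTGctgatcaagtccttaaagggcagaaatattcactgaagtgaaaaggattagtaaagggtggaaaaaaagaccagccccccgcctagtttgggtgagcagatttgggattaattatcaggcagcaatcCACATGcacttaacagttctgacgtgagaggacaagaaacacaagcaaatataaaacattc
GPR143, chrX:9765798-9766097, - strand: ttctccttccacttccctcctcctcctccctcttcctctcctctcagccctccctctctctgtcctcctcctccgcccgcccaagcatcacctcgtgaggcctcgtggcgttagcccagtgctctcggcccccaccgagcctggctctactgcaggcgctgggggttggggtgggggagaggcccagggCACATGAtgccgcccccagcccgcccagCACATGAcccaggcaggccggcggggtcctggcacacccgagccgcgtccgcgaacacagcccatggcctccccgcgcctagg
TRPM1, chr15:31161111-31161410, - strand: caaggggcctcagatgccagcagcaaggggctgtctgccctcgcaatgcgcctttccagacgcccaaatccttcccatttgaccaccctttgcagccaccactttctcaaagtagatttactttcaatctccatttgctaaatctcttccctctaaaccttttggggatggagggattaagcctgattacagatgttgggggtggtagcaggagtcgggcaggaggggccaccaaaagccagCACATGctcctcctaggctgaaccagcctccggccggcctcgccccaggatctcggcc
TCATGTG on either strand was in 4 of the 12 windows, those of TYR, TYRP1, DCT and GPR143, against 2.92% of the 35116 promoter windows of this length in the table. In TYR it began 105 bases before the start site and in TYRP1 145 bases before it. GPR143 had 2 copies, both on the opposite strand, at 61 and 33 bases before the start. CATGTG was in 7 of the 12 windows, including the single OCA2 window and both TRPM1 windows, against 11.1% of all windows. CACGTG was in 1 window, that of MLPH, against 7.26% of all, and the longer CACGTGAC was in 0 of the 12, against 2.4%. The windows of MLANA and MYO5A, which both rose at 250 nM, held none of these motifs. These matches describe the sequence only.

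At 250 nM, 5 of the 9 pigmentation genes rose and 0 fell (limma adjusted p under 0.05, cell line as a block), where 15.2% of all genes tested rose, 13.1% fell and so 28.3% changed. TRPM1 rose 2.91-fold, MYO5A, MLPH, GPR143 and MLANA rose by smaller amounts, and TYR, TYRP1, PMEL and OCA2 did not pass. All 9 had a positive log2 fold change, as did 55.7% of all genes. The median over the 9 was 0.31, against 0.03 over all genes tested, on the scale of log2(signal + 12) used for every log2 value here. Of the 9, 4 were higher in all 5 lines, against 20.9% of all genes. Because the list was chosen with earlier results of these data known, these shares do not test it. In bulk RNA, a larger share of pigmented cells and more RNA per cell cannot be told apart.

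**Figure D1:**
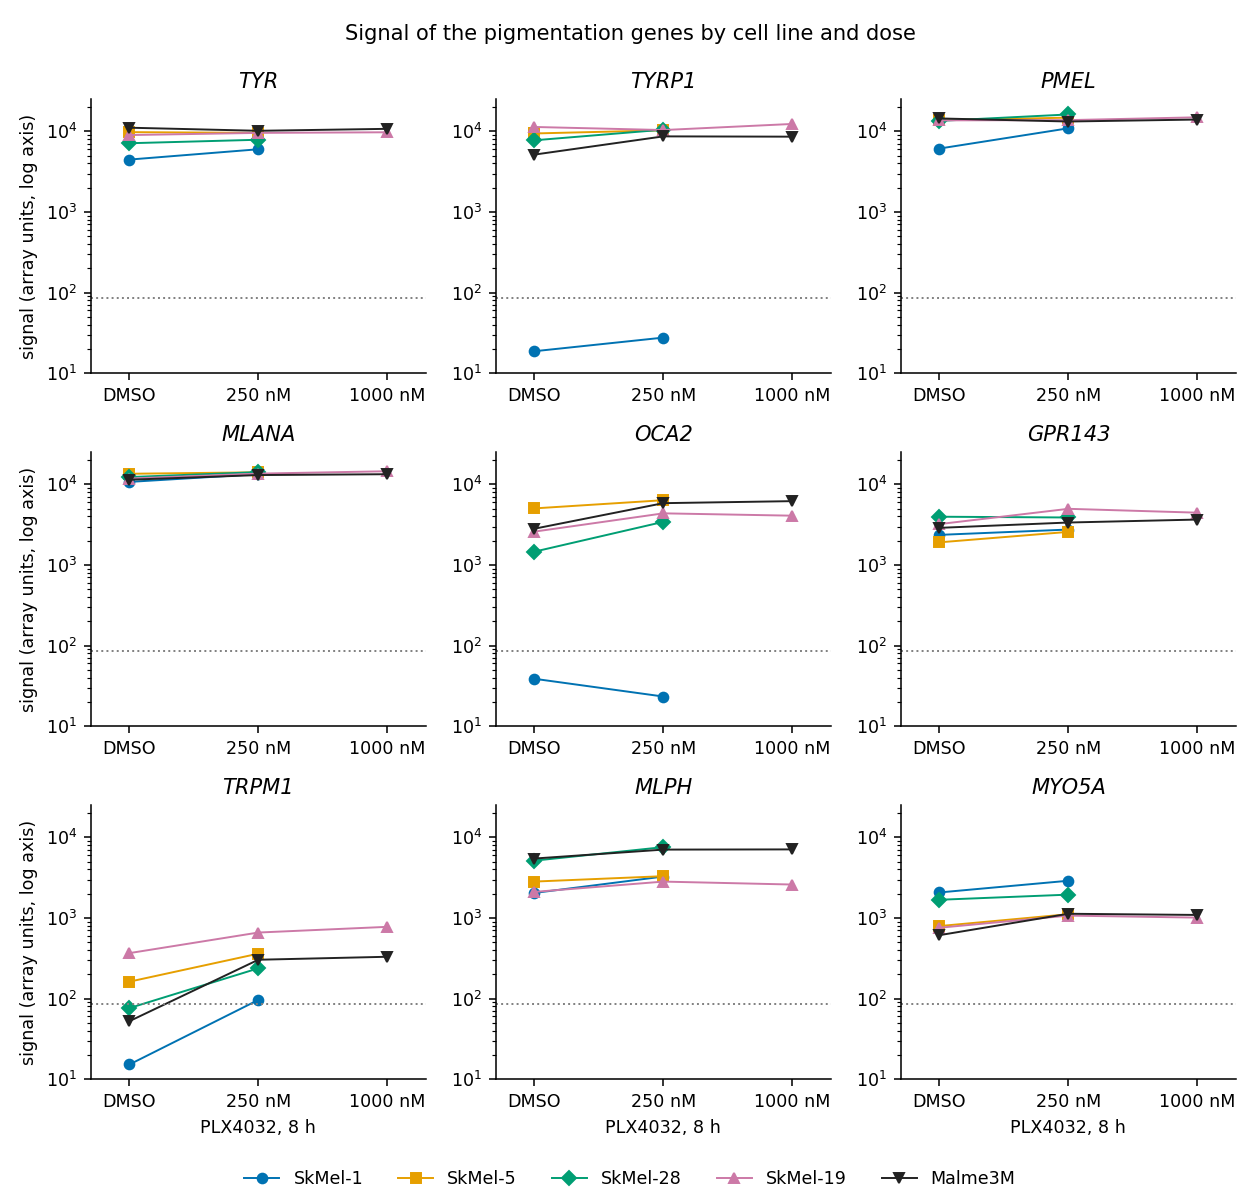
Signal of each pigmentation gene (log axis, array units) in DMSO, 250 nM and 1000 nM PLX4032, with 1 line per cell line and the filter level of 85.7 dotted. TYRP1 and OCA2 of SkMel-1 lie below the dotted line at both doses measured, and TRPM1 rises in every line.

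**Figure D2:**
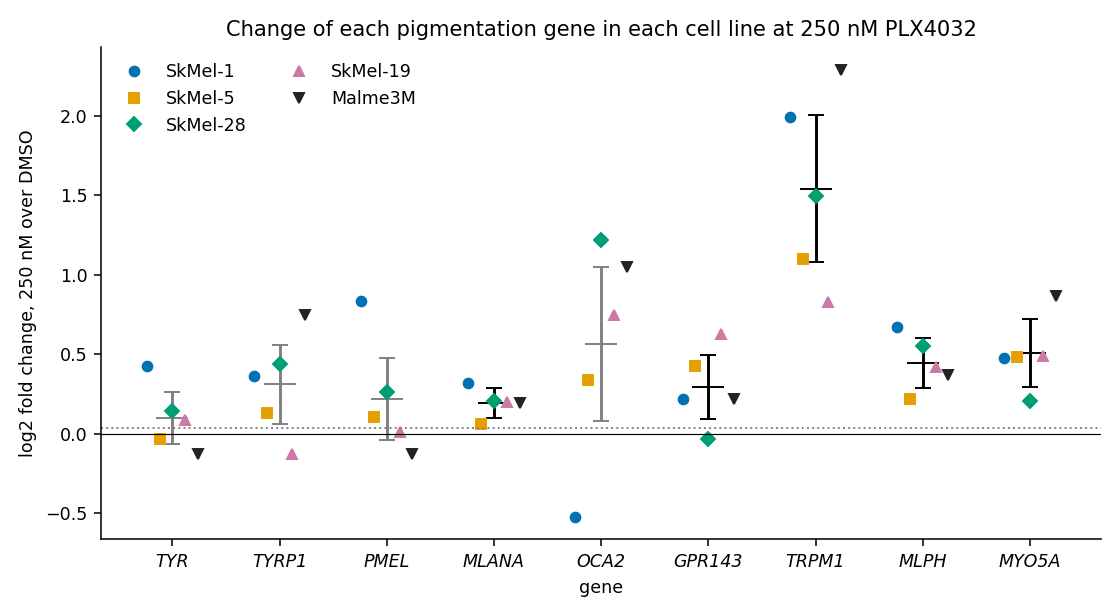
Log2 fold change of each pigmentation gene at 250 nM over DMSO, with 1 symbol per cell line and the limma mean with its 95% confidence interval as bars, black where the adjusted p is under 0.05 and grey otherwise. The dotted line is the median of all genes tested, 0.03, and the symbols of TRPM1 lie between 0.83 and 2.29.

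Neither enzyme gene measured passed the test. The signal of TYR at 250 nM was 5999 in SkMel-1, 9574 in SkMel-5, 7872 in SkMel-28, 9576 in SkMel-19 and 10168 in Malme3M, against 4467, 9783, 7126, 9002 and 11106 in the DMSO arrays of the same lines. It was higher at 250 nM in 3 of 5 lines and lower in SkMel-5 and Malme3M. Its log2 fold change was 0.10 (SE 0.07, 95% confidence interval -0.06 to 0.26, limma adjusted p = 0.328). Without SkMel-1 it was 0.019, and without Malme3M 0.16, neither past the threshold.

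TYRP1 split the lines by level. Its signal at 250 nM was 27.6 in SkMel-1, 10305 in SkMel-5, 10497 in SkMel-28, 10387 in SkMel-19 and 8669 in Malme3M, against 18.7, 9423, 7750, 11340 and 5150 in DMSO. SkMel-1 stood below the filter level of 85.7 in both conditions, and in the other lines TYRP1 reached at least 5150. SkMel-19, which had the highest DMSO signal, was the only line with a lower value at 250 nM. The log2 fold change was 0.31 (SE 0.11, 95% confidence interval 0.06 to 0.56, higher in 4 of 5 lines), which did not pass (limma adjusted p = 0.0626). Without SkMel-19 it was 0.42 and passed (limma adjusted p = 0.0302, 4 lines), and with all 12 arrays in 1 fit the adjusted p was 0.047. Without Malme3M it was 0.20 (limma adjusted p = 0.19), and setting all signals below 85.7 to 85.7 gave 0.24 (limma adjusted p = 0.155).

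The fibril protein gene PMEL depended on SkMel-1. Its signal at 250 nM was 10923 in SkMel-1, 14804 in SkMel-5, 16214 in SkMel-28, 13793 in SkMel-19 and 13255 in Malme3M, against 6123, 13762, 13503, 13699 and 14474 in DMSO. In SkMel-1, where the DMSO level was lowest, the log2 fold change was 0.83, and in the other 4 lines it lay between -0.13 and 0.26. Over all lines it was 0.22 (SE 0.11, limma adjusted p = 0.183), and without SkMel-1 it was 0.06 (limma adjusted p = 0.492).

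MLANA was higher in every line at both of its probe sets, by amounts that differed between them. The brighter of its probe sets read 13406 in SkMel-1, 14121 in SkMel-5, 14198 in SkMel-28, 13604 in SkMel-19 and 13052 in Malme3M at 250 nM, against 10736, 13542, 12323, 11822 and 11419 in DMSO. All 5 lines were higher at 250 nM, and the groups overlapped only through the DMSO value of SkMel-5. On the log2 scale it rose by 0.20 (SE 0.04, range over lines 0.06 to 0.32, limma adjusted p = 0.01). The other MLANA probe set read 6610, 4740, 6595, 8434 and 6893 at 250 nM, against 4168, 3986, 5455, 6514 and 4522 in DMSO, in the same order of lines. It rose more, by 0.43 on the log2 scale (SE 0.07, limma adjusted p = 0.00336 over 10745 probe sets). The highest signal of any probe set on an array lay between 15577 and 18308, so the brighter MLANA probe set and that of PMEL read near the top of the scale. Whether this limits their fold changes was not tested. MLANA lost its call when the prior variance had no trend on mean level (limma adjusted p = 0.0785).

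Among the membrane proteins, OCA2 gave the widest range. Its signal at 250 nM was 23.3 in SkMel-1, 6364 in SkMel-5, 3429 in SkMel-28, 4372 in SkMel-19 and 5848 in Malme3M, against 38.7, 5036, 1463, 2594 and 2818 in DMSO. SkMel-1 had signals below the filter level in both conditions, as it had for TYRP1. In the other 4 lines OCA2 was higher at 250 nM by 0.34 in SkMel-5, 1.22 in SkMel-28, 0.75 in SkMel-19 and 1.05 in Malme3M on the log2 scale. Over all 5 lines it stood at 0.57 (SE 0.21) and did not pass (limma adjusted p = 0.076). Without SkMel-1 it was 0.84 and passed (limma adjusted p = 0.00511, 4 of 4 lines higher), and setting all signals below 85.7 to 85.7 gave 0.67, which passed (limma adjusted p = 0.017).

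The receptor gene GPR143 had signals at 250 nM of 2751 in SkMel-1, 2575 in SkMel-5, 3884 in SkMel-28, 4976 in SkMel-19 and 3364 in Malme3M, against 2363, 1909, 3970, 3216 and 2889 in DMSO. It was higher at 250 nM in 4 of 5 lines, and SkMel-28, which had the highest DMSO signal, was slightly lower. GPR143 rose by 0.29 on the log2 scale (SE 0.09, limma adjusted p = 0.0384). The call was lost without SkMel-1, SkMel-5, SkMel-19 or Malme3M (limma adjusted p between 0.0669 and 0.121), with each array centred on its median (0.0677), without the signal filter (0.0652) and without the variance trend (0.0729).

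TRPM1 rose in every line. Its signal at 250 nM was 96.2 in SkMel-1, 361 in SkMel-5, 237 in SkMel-28, 660 in SkMel-19 and 303 in Malme3M, against 15.2, 162, 76.2, 366 and 52.4 in DMSO. The log2 fold change was 1.54 (SE 0.21, 95% confidence interval 1.08 to 2.00, limma adjusted p = 0.00129), from 0.83 in SkMel-19, the line with the highest DMSO signal, to 2.29 in Malme3M. The DMSO signals of SkMel-1, SkMel-28 and Malme3M lay under 85.7, so the size rests in part on the pseudocount. Setting all signals below 85.7 to 85.7 gave 1.02 (limma adjusted p = 0.00685). A rise of at least 2-fold that passed was found in 0.724% of all genes tested. The other TRPM1 probe set read between 0.8 and 22.5 on all 12 arrays, under the filter, and was not tested.

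An intron of TRPM1 is known to hold the microRNA miR-211, which is abundant in melanocytes. In RefSeq (GRCh38.p14) the mature strand lies at chr15:31065095-31065116, on the - strand and inside TRPM1 (chr15:31001065-31161160). Its sequence is shown because it is carried in the transcript with the largest rise among these genes, with the seed (bases 2 to 8) in capitals. The arrays measured the TRPM1 probe sets, and the microRNA itself was not measured.
hsa-miR-211-5p: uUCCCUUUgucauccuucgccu

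The genes of melanosome transport rose in all 5 lines. MLPH had signals at 250 nM of 3267 in SkMel-1, 3301 in SkMel-5, 7570 in SkMel-28, 2828 in SkMel-19 and 7054 in Malme3M, against 2046, 2830, 5147, 2107 and 5464 in DMSO. Its log2 fold change was 0.45 (SE 0.07, range over lines 0.22 to 0.67, limma adjusted p = 0.00263). MYO5A had signals at 250 nM of 2898 in SkMel-1, 1113 in SkMel-5, 1948 in SkMel-28, 1070 in SkMel-19 and 1128 in Malme3M, against 2074, 794, 1682, 757 and 612 in DMSO. Its log2 fold change was 0.51 (SE 0.09, range 0.21 to 0.87, limma adjusted p = 0.00551). For both genes the lines differed more from each other than the drug moved any of them. The highest DMSO signal was 2.67 times the lowest for MLPH and 3.39 times for MYO5A, while the rises were 1.36-fold and 1.42-fold. The second MYO5A probe set read between 0.2 and 5.9 on all arrays and was not tested.

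For 0 of the 9 genes did every 250 nM array lie above every DMSO array, which held for 0.543% of all genes. The calls therefore rest on the pairing of arrays by line. Without the line as a block 0 of the 9 passed and 13 of the 7178 genes did. Taken by probe set, 10 of the 12 were bright enough to be tested and 6 rose, those of the 5 genes above with both MLANA probe sets, against 12.9% of all 10745 probe sets tested. In each line 7 or 8 of the 9 genes were higher at 250 nM, as were 51.7% to 55.9% of all genes tested. The median log2 fold change over the 9 was 0.42 in SkMel-1, 0.22 in SkMel-5, 0.26 in SkMel-28, 0.42 in SkMel-19 and 0.37 in Malme3M, and the median of all genes lay between 0.01 and 0.05.

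The higher dose asked whether the genes went further in SkMel-19 and Malme3M. At 1000 nM against DMSO, 5 of the 9 rose and 0 fell, where 5.29% of all genes rose, 5.89% fell and 11.2% changed (2 lines, 2 residual degrees of freedom). At 250 nM in the same lines and against the same DMSO arrays, 5 rose and 0 fell, where 5.98% of all genes rose, 5.36% fell and 11.3% changed. In both cases they were OCA2, TRPM1, MYO5A, MLPH and MLANA.

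OCA2 read 2594 in DMSO, 4372 at 250 nM and 4089 at 1000 nM in SkMel-19, and 2818, 5848 and 6196 in Malme3M. Its log2 fold change over DMSO was 0.90 at 250 nM and 0.89 at 1000 nM (SE 0.12 each, limma adjusted p = 0.0113 and 0.0114). TRPM1 read 366, 660 and 776 in SkMel-19 and 52.4, 303 and 330 in Malme3M, in the order DMSO, 250 nM, 1000 nM. Its log2 fold change was 1.56 at 250 nM and 1.73 at 1000 nM (SE 0.35 each, limma adjusted p = 0.0439 and 0.0347), and it was larger in Malme3M (2.29 and 2.41) than in SkMel-19 (0.83 and 1.06), a difference that was not tested.

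MYO5A had log2 fold changes over DMSO of 0.68 at 250 nM and 0.62 at 1000 nM (SE 0.14 each, limma adjusted p = 0.0341 and 0.0432). MLPH had 0.40 and 0.34 (SE 0.07 each, limma adjusted p = 0.0248 and 0.0373), and MLANA 0.20 and 0.26 (SE 0.04 each, limma adjusted p = 0.0434 and 0.0204). GPR143 had 0.42 and 0.40 (SE 0.11 each) and did not pass at either dose in these lines (limma adjusted p = 0.0595 and 0.0644). Several of these calls were lost under other settings. Without the signal filter 2 of the 9 genes passed at 250 nM in these lines and 1, OCA2, at 1000 nM. At 1000 nM 445 of all 11963 genes then passed, against 803 of 7178 with the filter. The numbers of all genes at 250 nM are given with the processing settings below.

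The remaining genes did not pass at either dose in these lines. TYR and PMEL stood slightly above DMSO at both doses in SkMel-19 and slightly below it at both doses in Malme3M, by no more than 0.13 on the log2 scale. TYRP1 in Malme3M was 0.75 above DMSO at 250 nM and 0.74 at 1000 nM, while in SkMel-19 it stood at -0.13 and 0.12.

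Between 1000 nM and 250 nM, 0 of the 9 genes and 0 of all 7178 genes passed limma (0% called), and at an unadjusted p under 0.05 there were 0 of the 9 and 75 of all genes. The difference was 0.17 for TRPM1 (95% confidence interval -0.69 to 1.04), -0.01 for OCA2 (-0.29 to 0.28), -0.06 for MYO5A (-0.40 to 0.27) and -0.06 for MLPH (-0.23 to 0.12). These intervals do not show that the doses acted alike.

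**Figure D3:**
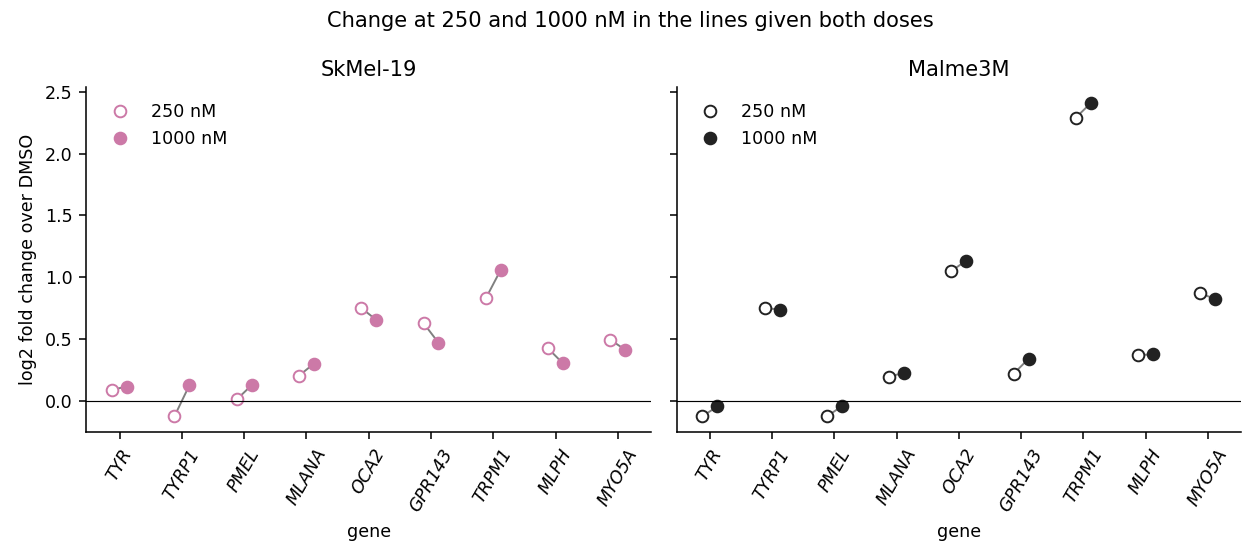
Log2 fold change over DMSO of each pigmentation gene at 250 nM (open) and 1000 nM (filled) in SkMel-19 and in Malme3M, with 1 array per point. The paired points lie close together, at most 0.25 apart (TYRP1 in SkMel-19), and TRPM1 is the highest in both lines.

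Among the regulators of these genes some rose and others fell. MITF, the lineage transcription factor, read 5013 in SkMel-1, 7722 in SkMel-5, 5860 in SkMel-28, 5618 in SkMel-19 and 6928 in Malme3M at 250 nM, against 4900, 6016, 6268, 5493 and 5931 in DMSO. Neither MITF (log2 fold change 0.11, SE 0.07, limma adjusted p = 0.247) nor SOX10, its upstream activator (0.11, SE 0.06, limma adjusted p = 0.18), passed. In the related lists that follow, counts are at 250 nM and stand against 15.2% of all genes that rose and 13.1% that fell. Those lists were also chosen with earlier results of these data known, so the shares do not test them. Of 12 pigment transcription factors with a probe set 11 were tested. Of these 5 rose and 1 fell, with a median of 0.27, against 0.03 for all genes. CITED1, a transcriptional coregulator (1.08, SE 0.16), IRF4, which acts on the TYR enhancer with MITF (0.85, SE 0.13), and TFEB, a relative of MITF that drives lysosome genes (1.26, SE 0.21), rose, and LEF1, a transcription factor of WNT signalling (-1.48, SE 0.32), fell in all 5 lines. TFEB was under 85.7 on 4 of 10 arrays, and with signals below 85.7 set to 85.7 its log2 fold change was 0.87 (limma adjusted p = 0.0475). Of 12 pigment signalling genes with a probe set 8 were tested. Of these 4 rose and 1 fell (median 0.27), against 15.2% and 13.1% of all genes. Without SkMel-28, 2 of the 8 rose and 1 fell. The fit without SkMel-28 called 1422 of all genes in either direction, against 2029 with all 5 lines. The receptor tyrosine kinase KIT rose (1.29, SE 0.22, with 3 of 10 arrays under 85.7), as did the adenylate cyclase ADCY2 (0.46, SE 0.10, with 0.08 at its other probe set) and the protein kinase C gene PRKCB, whose product phosphorylates tyrosinase (0.38, SE 0.10). MC1R, the receptor for melanocortin hormones, which raise pigment production, fell (-2.10, SE 0.23).

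Of 6 tested ion and amino acid transporters of the melanosome and lysosome, 5 had a positive log2 fold change (median 0.54). Of the 6, 4 rose and 0 fell, against 15.2% and 13.1% of all genes. Those that rose were the cystine transporter CTNS (0.82, SE 0.11, limma adjusted p = 0.00118) and 3 others. The copper pump ATP7A, which supplies tyrosinase with its metal, rose by 0.69 (SE 0.12). The chloride transporter CLCN7 rose by 0.61 (SE 0.10) and the melanosomal transporter SLC45A2 by 0.26 (SE 0.07). The other probe sets of ATP7A and SLC45A2 both stood at 0.23 and did not pass (limma adjusted p = 0.173 and 0.0864). Of 20 genes with a probe set that sort cargo to melanosomes, 19 were tested. Of these 6 rose and 0 fell (median 0.19), against 15.2% and 13.1% of all genes. HPS4 (0.77, SE 0.13), part of the exchange factor for RAB32 and RAB38, rose together with RAB32 (0.73, SE 0.13) and RAB38 (0.66, SE 0.09), which direct TYR and TYRP1 to the melanosome, and HPS5, which acts in the same trafficking (0.32, SE 0.08). Without SkMel-28 the count was 3 of 19. That fit called 1422 of all genes in either direction, against 2029 with all 5 lines.

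Of 9 genes of melanosome movement and release with a probe set, 6 were tested. Of these 1 rose and 1 fell (median 0.08), which is near the shares of all genes, 15.2% and 13.1%. RAB27A, the GTPase that binds MLPH, read 8569 in SkMel-1, 6142 in SkMel-5, 5665 in SkMel-28, 4234 in SkMel-19 and 7473 in Malme3M at 250 nM, against 5512, 3595, 3449, 1922 and 3648 in DMSO. It rose in all 5 lines (0.86, SE 0.08, limma adjusted p = 0.000277), so that each of the 3 parts of the RAB27A, MLPH and MYO5A carrier was higher in every line. RAB17, a GTPase of recycling endosomes, fell (-0.98, SE 0.22). MITF targets outside pigment synthesis rose in 7 of 13 cases and fell in 2 (median 0.28), against 15.2% and 13.1% of all genes. PPARGC1A, the mitochondrial coactivator (1.86, SE 0.18), the receptor MET (0.94, SE 0.17) and the protease CTSK (0.51, SE 0.17, limma adjusted p = 0.0473) rose, and the survival gene BCL2 fell (-0.48, SE 0.15). The other MET probe sets stood lower, at 0.63, 0.68 and 0.40, the last of which did not pass (limma adjusted p = 0.222). MET was under 85.7 on 2 of 10 arrays, and with signals below 85.7 set to 85.7 it was 0.64 (limma adjusted p = 0.0296). CTSK lost its call with median centring (0.0543), quantile normalization (0.0599) or signals below 85.7 set to 85.7 (0.075). BCL2 was under 85.7 on 3 of 10 arrays and lost its call with signals so set (-0.35, limma adjusted p = 0.0569). The falls in this list numbered 0 without SkMel-1, SkMel-5 or SkMel-28. Those fits called 1423, 1836 and 1422 of all genes in either direction, against 2029 with all 5 lines.

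**Figure D4:**
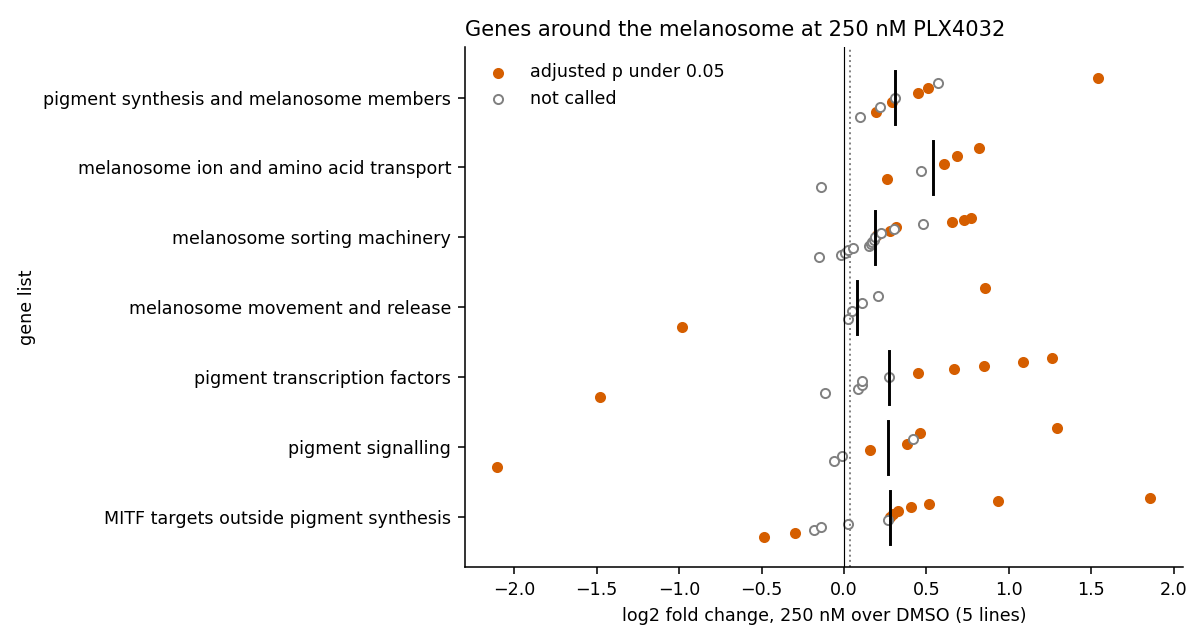
Log2 fold change at 250 nM over DMSO (mean of 5 lines) of every tested gene of the pigmentation list and of 6 related lists, filled where the limma adjusted p is under 0.05, with the list median as a bar and the median of all genes (0.03) dotted. The transporter list has the highest median, 0.54, and MC1R (-2.10) and LEF1 (-1.48) stand farthest to the left.

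The labels were checked against marker genes and a known output of the drug. DUSP6, an ERK target, fell in all 5 lines (-5.04, SE 0.57, limma adjusted p = 0.000679). At 250 nM it was under 85.7 in 4 of 5 lines, so the size rests on the pseudocount, and with signals below 85.7 set to 85.7 it was -3.98. SkMel-5 kept a DUSP6 signal of 652 at 250 nM, against 2670 in DMSO, and had the smallest fall, -2.01. Of 7 melanocyte lineage markers, MITF, SOX10, S100B, S100A1 and TFAP2A were above the filter level on all 12 arrays. CSPG4 reached the filter level on 9 of the 12 arrays (lowest signal 25.1) and PAX3 on 10 (lowest signal 44.4). Of 8 keratinocyte markers measured 6 were under it on all arrays, as were 4 of 9 fibroblast, 5 of 7 blood cell, 4 of 5 endothelial and 2 of 4 retinal pigment epithelium markers, with none at exactly 0. The summed signal of the keratinocyte list, carried mainly by KRT10, was 2560 to 4815 at 250 nM against 2358 to 3766 in DMSO, and KRT5 and KRT14 did not exceed 39.3. That of the fibroblast list was 634 to 2078 against 655 to 1775, that of the blood list 184 to 1190 against 175 to 679, and that of the endothelial list 64.8 to 211 against 58.9 to 117. Of the keratinocyte and fibroblast markers 2 each were tested and 0 passed limma. The smallest p-values were those of KRT10 (0.15, limma adjusted p = 0.152) and SFN (0.03, limma adjusted p = 0.878), and of LUM (0.18, limma adjusted p = 0.133) and COL1A1 (-0.05, limma adjusted p = 0.816). LUM reached 1720 and was above the filter level on all 12 arrays. Of the blood and endothelial markers 0 were bright enough to test. In the blood list CD79A reached 1015 and HBB 127.5, each above 85.7 on 2 arrays. In the endothelial list VWF reached 152.5 and was above it on 1 array. The part of these markers in the results was not tested.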

How the data were processed

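Expression was measured on Affymetrix arrays from total RNA. The deposited table holds 1 linear intensity per probe set and array for 22277 probe sets, made by the authors with GCOS, per the submitters' processing notes, while its probe summary and background treatment are not given in the sources used here. Each array has a trimmed mean (2% off each end) of 500.1, so no further scaling was applied. Probe sets were named from the platform annotation (19064 with 1 symbol, 19052 matched by Entrez ID, 1043 with several symbols and 2108 with none, 62 controls set aside). For each gene the probe set of highest mean log2(intensity + 12) was taken, 12 being the 20th percentile of all values, and the test covered genes at or above the 40th percentile, a signal of 85.7.

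limma 3.58.1 (R 4.3.3) was used with cell line as a block, a variance trend and Benjamini-Hochberg adjustment over all genes. SEs are moderated. Residual degrees of freedom were 4 for 250 nM (10 arrays) and 2 for the comparisons in the lines given both doses (6 arrays). The pairing comes from the cell line in the labels. With group means subtracted, the correlation within a line was 0.898 to 0.931. A second fit tested every probe set. The steps were tested on simulated data. The number of arrays limits the precision.

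The members and lists were chosen with earlier results of these data known. Named genes are the members, MITF, SOX10, MC1R, KIT, RAB27A and DUSP6, and from each list up to 4 called genes with the largest change, or, where there was no call, the 2 of smallest p. Lists are described by counts and medians only. Named genes had 23 other probe sets above the filter, 0 with the opposite sign. Alternatives were the pseudocount, filter, scaling, probe set choice, variance prior, block and lines left out. The planned comparison of protein sequences was not made. Plots were made in Python 3.11.15 (matplotlib 3.10.9).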

Additional observations from a re-analysis of the deposited data

Results flagged for a closer look

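Groups of 5 arrays were checked for a line far from the others by Dixon's gap test, in 60 groups of values, and 6 stood out, where chance gives about 1 in 20. SkMel-1 was far below the other lines for TYRP1, with a log2 level of 5.31 at 250 nM (others 13.08 to 13.36) and of 4.94 in DMSO (others 12.33 to 13.47). It was likewise far below them for OCA2, with 5.14 at 250 nM (others 11.75 to 12.64) and 5.66 in DMSO (others 10.53 to 12.30). The PMEL level of SkMel-1 in DMSO was 12.58, where the others lay between 13.72 and 13.82. RAB32 had a log2 fold change of 1.40 in Malme3M at 250 nM, above the 0.43 to 0.66 of the other lines.

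TYR and PMEL had opposite signs in the lines given both doses, a difference that was not tested. The log2 fold change of TYR was 0.089 at 250 nM and 0.11 at 1000 nM in SkMel-19, and -0.13 and -0.047 in Malme3M. That of PMEL was 0.0098 and 0.13 in SkMel-19, and -0.13 and -0.045 in Malme3M.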

How the results depend on the processing

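At 250 nM against DMSO, 142 of 160 values of single genes under the alternatives kept their direction and side of the threshold, 13 lost the call, 5 gained it and 0 changed sign. The number of the 9 genes called, 5 as reported, was 3 without the variance trend, where 1877 of all genes were called. With a line left out it was 4 to 5, and the probe sets called, 6, were 5 to 6. All genes called numbered 1288 to 1836 with a line left out (1288 without SkMel-19, 1339 without Malme3M), against 2029. With no replicate block 0 of the 9 genes, 0 of their probe sets and 13 of all genes passed. At 1000 nM, 5 of the 9 and 803 of all genes passed as reported. Without the filter 1 and 445 passed, and with signals under 85.7 raised to it 3 and 460. Without the trend 1 and 530 passed, with no replicate block 0 and 0, and with the mean over probe sets 3 and 815. At 250 nM in SkMel-19 and Malme3M (5 and 814), the numbers were 2 and 430, 2 and 468, 1 without the trend, 0 and 0, and 3. OCA2 at 1000 nM did not pass with all 12 arrays in 1 fit (0.73, limma adjusted p = 0.134). Signs changed in PMEL at 1000 nM against DMSO (-0.030 with quantile normalization) and, between the doses, in MLANA (-0.016 with quantile normalization) and, with all 12 arrays, in TYR (-0.0064), PMEL (-0.039), OCA2 (0.16), GPR143 (0.047) and MYO5A (0.022), none of them called. Signs also changed, from the remaining line alone, without SkMel-19 at 1000 nM in TYR (-0.047) and PMEL (-0.045) and between the doses in TYRP1 (-0.012), OCA2 (0.083), GPR143 (0.12) and MLPH (0.0083), and without Malme3M at 250 nM in TYR (0.089), TYRP1 (-0.13) and PMEL (0.0098). The cause was not tested. TRPM1 has no value with the filter at the 60th percentile or with the mean over probe sets, since it then falls below the filter, and its log2 fold change at 250 nM ran from 1.02 to 1.74 elsewhere. With 1 of the lines given 1000 nM left out no test was possible, and the line values stand in the report. The fit of all 12 arrays gives no separate value for 250 nM in those lines. Settings for the related lists, and raised low signals for named genes outside the 9, were chosen after seeing the data.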

Other observations

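The lineage marker CSPG4, a cell surface proteoglycan of melanoma cells, fell at 250 nM in all 5 lines (-1.58, SE 0.25, limma adjusted p = 0.00284), and TFAP2A, a transcription factor of neural crest cells and melanocytes, rose (0.67, SE 0.13, limma adjusted p = 0.00735). They were the 1 that fell and the 1 that rose among 7 lineage markers tested (median 0.11), near the 15.2% of all genes that rose and the 13.1% that fell. TFAP2A, MITF, SOX10 and PAX3 are also on the list of pigment transcription factors, so TFAP2A is 1 of the 5 genes that rose there. Of the markers of retinal pigment epithelium, the other pigmented cell type of the body, 2 of 4 were tested. The chloride channel gene BEST1 rose (1.32, SE 0.19, limma adjusted p = 0.00191) and the retinoid carrier gene RLBP1 fell (-0.59, SE 0.10, limma adjusted p = 0.00431), each in the same direction in all 5 lines. The summed signal of that list was 332 to 1436 at 250 nM against 242 to 1267 in DMSO.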
